A study of Mus musculus with 172 samples.

Results

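The 81 genes described here encode, for the most part, subunits of the mitochondrial respiratory chain and of ATP synthase that are made from nuclear genes. They were chosen by symbol alone, as every gene listed whose name starts with *Nduf* and a letter a, b, c, s or v with a number, is *Sdha*, *Sdhb*, *Sdhc* or *Sdhd*, or starts with *Uqcr*, *Cox4* to *Cox8*, or *Atp5*. The rule uses names and no measured value. Of 14896 genes listed in cortex 81 were members, and of 14107 listed in liver 79 were, with *Cox6a2* and *Cox7b2* listed in cortex alone. Grouped by symbol, 36 members fall to complex I, 4 to complex II, 8 to complex III, 16 to complex IV (14 in liver) and 17 to complex V. This grouping counts *Atp5s* and *Atp5sl* with complex V, *Cox7a2l* with complex IV, and *Ndufa4* and *Ndufa4l2* with complex I. Their roles differ from that of a subunit of the named complex, as described below. All members listed in a tissue entered the tests, and none was set aside for a low value. *Ndufs5*, *Cox8b* and *Cox8c* match the rule in the mm9 annotation but are in neither table. The 13 protein-coding genes of mitochondrial DNA are not among the genes analysed here, so the description covers the nuclear share of each complex.

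The respiratory chain passes electrons from NADH and succinate to oxygen and pumps protons across the inner mitochondrial membrane, and ATP synthase uses the proton gradient to make ATP. Complex I takes electrons from NADH, complex II from succinate, complex III hands them to cytochrome c, and complex IV reduces oxygen. Each of complexes I, III and IV joins a catalytic core to small accessory, or supernumerary, subunits, and some complex IV and complex V subunits come in tissue-specific isoforms. Neurons and hepatocytes are both rich in mitochondria, and neurons depend on this pathway for most of their ATP.

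The study compared mice kept undisturbed (Ctr) with mice kept awake for 6 h from light onset (SD), and both were killed 6 h after light onset at an age of 11 to 14 weeks. Cerebral cortex and liver were taken from 33 BXD/RwwJ lines, which are recombinant inbred lines between the strains C57BL/6J (B6) and DBA/2J (D2), from 2 pools of each parental strain and from the 2 reciprocal F1 hybrids. RNA of the mice of a line, tissue and condition was pooled before sequencing, so a value belongs to a pool and not to a mouse, and the spread between mice is not seen. This gave 39 pools per condition and tissue. Pools of 4 BXD/TyJ lines, 16 libraries in all, entered only the fits named as using all 43 pools. Levels are log2 CPM, the logarithm of the share of a library's reads on a fixed scale, after the authors' TMM scaling. Libraries held 18995492 to 28998853 reads in cortex Ctr and 19025159 to 28685060 in cortex SD, but 5034166 to 8269401 in liver Ctr and 4681101 to 8009362 in liver SD. As a check of the labels, all 5 neuron markers were listed in cortex, where 4 of 5 hepatocyte markers, *Alb* among them, were not listed, and all 5 hepatocyte markers were listed in liver. Of the 5 neuron markers 2 were listed in liver too, at mean Ctr levels of 0.817 and 6.04 log2 CPM. In bulk tissue, fewer cells of a type and less RNA per cell cannot be told apart.

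Some members cannot be counted cleanly. When the transcript of each member was split into windows of 100 bases and matched to the mm9 genome, 19 of the 81 had at least 1 window with an exact second copy elsewhere. The share was 100% of windows for *Atp5g2*, 83.1% for *Atp5l*, 67.4% for *Cox7c* and 67% for *Atp5g1*, and it lay from 10% to 37.7% for *Ndufb4*, *Cox5b*, *Cox7a2l*, *Atp5h*, *Ndufs3*, *Uqcrb*, *Ndufa12*, *Atp5j*, *Cox6c* and *Uqcr11*. Values of these 14 members are uncertain, since reads that fit several places may have been lost or shared. *Atp5o*, *Ndufb2* and *Ndufb8* overlap exons of a neighbouring gene on the same strand.

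In cortex, sleep deprivation moved these transcripts by small amounts in both directions. With the SD and Ctr pools of each line paired, 41 of 81 members passed an adjusted p under 0.05 in limma, 18 of them higher and 23 lower after SD, where 76.3% of all genes listed passed, 36.6% higher and 39.6% lower. The median change of the members was 0.01 on the log2 scale and that of all genes was -0.01. The median size of a change, whatever its sign, was 0.04 for the members and 0.13 for all genes. The largest member rise was 0.13 and the largest fall was 0.33, and for no member did the Ctr and SD ranges separate, against 1.4% of all genes. The plot of changes by complex shows that complexes I, III, IV and V each held members that rose and members that fell.

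**Figure D1:**
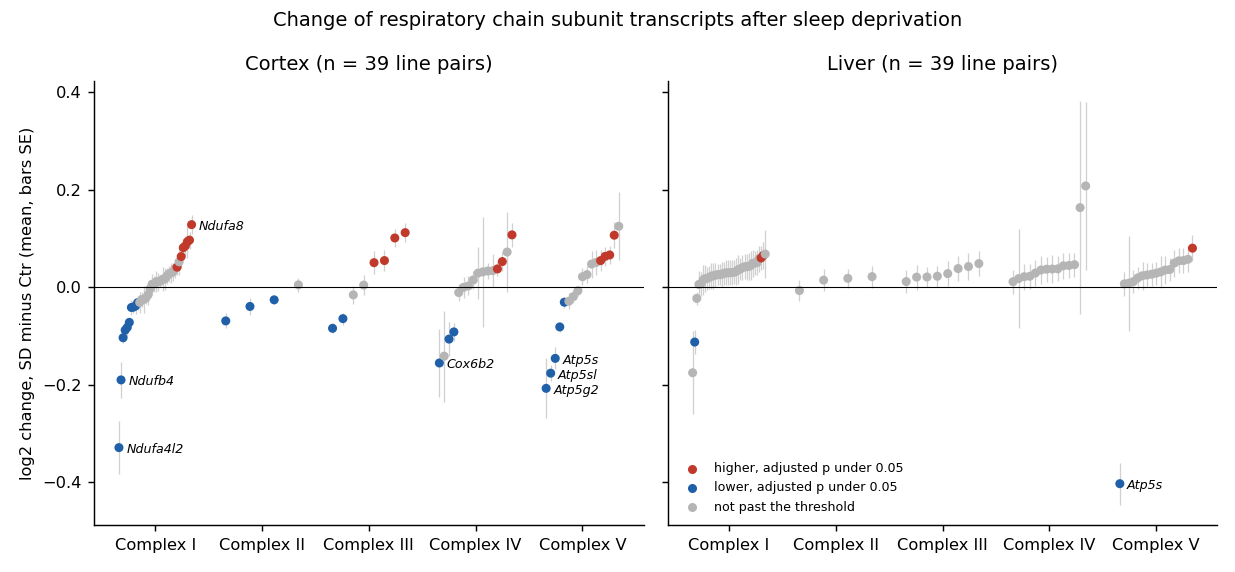
Mean log2 change (SD minus Ctr) of each member, by complex, in cortex (left) and liver (right), with bars of 1 SE over 39 line pairs. Red and blue points passed an adjusted p under 0.05 in limma, and grey points did not. In cortex 18 points are red and 23 blue, and in liver 3 are red and 2 blue.

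Complex I had 7 members that rose and 10 that fell. Of its 7 core subunits, which carry the flavin and iron-sulphur clusters, 5 fell, none rose and 2 did not pass, and their median change was -0.04. *Ndufs1*, the large iron-sulphur subunit at the NADH end (chromosome 1 of mm9, 63190170 to 63223396, minus strand), had a lowest, median and highest level of 7.16, 7.30 and 7.44 log2 CPM in Ctr pools and of 7.06, 7.19 and 7.36 in SD pools. The ranges overlap, but within lines it fell in all but 3 of 39, by 0.10 on the log2 scale (SE 0.0111, adjusted p = 1.47e-11, limma). *Ndufs3*, *Ndufv1* and *Ndufs8* fell by 0.08, 0.04 and 0.03. Of the 28 accessory subunits 7 rose, 4 fell and 17 did not pass.

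*Ndufa8*, an accessory subunit of the intermembrane space side (chromosome 2 of mm9, 35891846 to 35904926, minus strand), had the largest rise of any member. Its Ctr pools had a lowest, median and highest level of 5.77, 5.92 and 6.34 log2 CPM, and its SD pools of 5.91, 6.04 and 6.26. It was higher after SD in 37 of 39 lines, by 0.13 on the log2 scale (SE 0.0188, adjusted p = 4.34e-08, limma). *Ndufb10*, *Ndufa12*, *Ndufa5*, *Ndufs4*, *Ndufb2* and *Ndufb3* rose by 0.10, 0.09, 0.09, 0.08, 0.06 and 0.04, and *Ndufa12*, which differed widely between lines, did not pass without pairing (adjusted p = 0.715, limma). Among those that fell, *Ndufb4* changed by -0.19 (8 of 39 lines higher), from a Ctr median of 2.02 log2 CPM. *Ndufv3*, *Ndufa10* and *Ndufb9* changed by -0.09, -0.04 and -0.04.

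The paralogue *Ndufa4l2*, a gene known for induction under low oxygen, had the largest fall of all members. It was a low transcript, with a lowest, median and highest level of 0.56, 1.20 and 1.70 log2 CPM in Ctr pools and 0.20, 0.86 and 1.44 in SD pools. It was lower after SD in all but 5 of 39 lines, by 0.33 on the log2 scale (SE 0.0537, adjusted p = 4.43e-07, limma). *Ndufa4*, its abundant relative, which is now counted with complex IV, had a Ctr median of 7.28 and a change of -0.03 that did not pass (adjusted p = 0.149, limma).

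In complex II, which is also an enzyme of the tricarboxylic acid cycle, 3 of 4 members fell and none rose. The catalytic subunits *Sdhb* and *Sdha* changed by -0.07 (5 of 39 lines higher) and -0.03 (7 of 39 lines higher). The change of the membrane anchor *Sdhc* was -0.04 and close to the threshold (adjusted p = 0.0493, limma), and without the pair of line BXD90 it was not past it (adjusted p = 0.0922). *Sdhd*, the other anchor, changed by 0.01 with an adjusted p of 0.753 in limma.

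In complex III the core and accessory subunits passed in opposite directions. *Uqcrc2* and *Uqcrc1*, the large core proteins that carry no cofactor, fell by 0.08 and 0.06, whereas the Rieske protein *Uqcrfs1* changed by -0.02 without passing (adjusted p = 0.464, limma). *Uqcrc2* (chromosome 7 of mm9, 127778690 to 127802992, plus strand) had a lowest, median and highest level of 7.50, 7.67 and 7.77 log2 CPM in Ctr pools and 7.35, 7.59 and 7.71 in SD pools, and it was lower in all but 2 of 39 lines (SE 0.0104, adjusted p = 7.13e-10, limma). Of the 5 accessory subunits 4 rose. They were *Uqcrb*, *Uqcrh*, *Uqcr10* and *Uqcr11*, by 0.11, 0.10, 0.05 and 0.05, and *Uqcrq* changed by 0.00449 and did not pass.

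**Figure D2:**
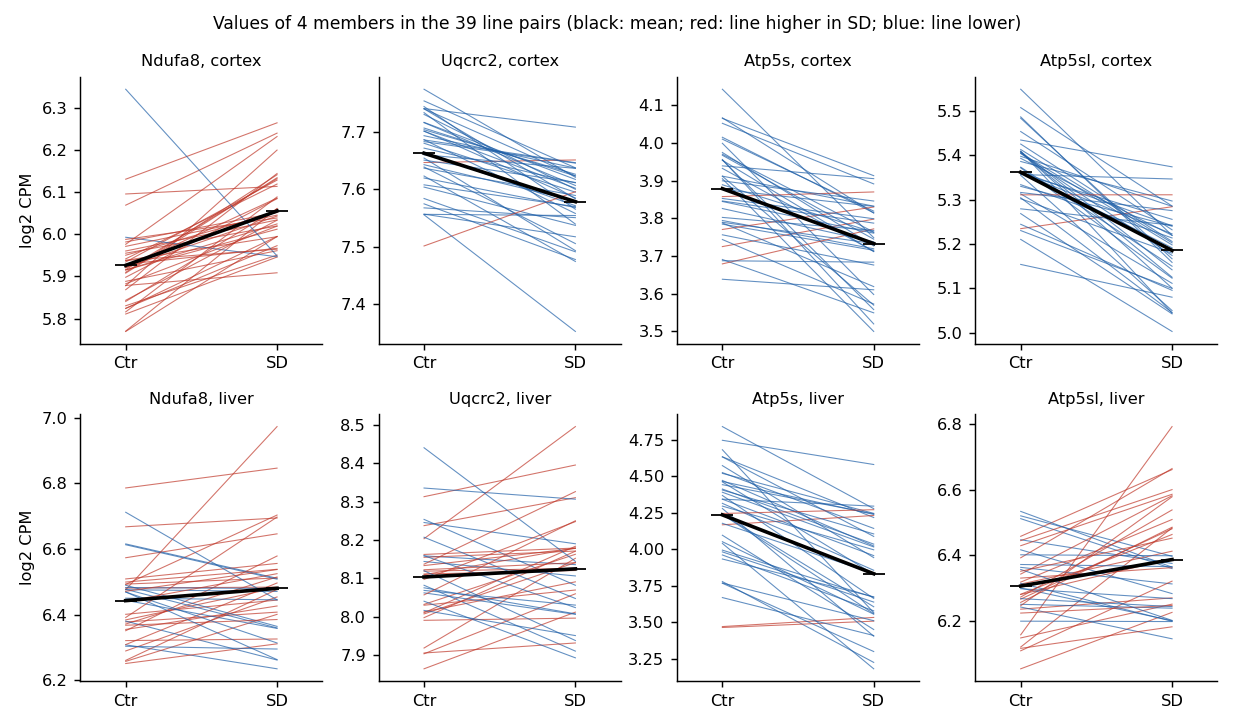
Levels (log2 CPM, with a scale for each panel) of *Ndufa8*, *Uqcrc2*, *Atp5s* and *Atp5sl* in the Ctr and SD pools of 39 lines, cortex above and liver below. Thin lines join the pools of a line, red where SD was higher and blue where it was lower, and black lines join the means. In cortex *Ndufa8* rose in 37 lines and *Uqcrc2* in 2, while *Atp5s* rose in 4 lines of each tissue.

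In complex IV, 3 of 16 members rose and 3 fell. *Cox5a*, which binds close to the core, had a lowest, median and highest level of 6.34, 6.69 and 7.15 log2 CPM in Ctr pools and 6.52, 6.81 and 7.04 in SD pools. It was higher in 31 of 39 lines, by 0.11 (SE 0.0245, adjusted p = 1.15e-04, limma). *Cox7a2* and *Cox7b* rose by 0.05 and 0.04. The members that fell were *Cox6b2*, the testis isoform, *Cox6a2*, the heart and skeletal muscle isoform, and *Cox7a2l*, which takes part in joining complexes III and IV into supercomplexes. They changed by -0.16, -0.11 and -0.09. *Cox6b2* was near the lower end of the table, with a Ctr median of 0.17 log2 CPM, and it did not pass without BXD90 (-0.15, adjusted p = 0.0591, limma) or over the 33 BXD/RwwJ lines (-0.09, adjusted p = 0.280). *Cox6a2* and *Cox7a2l* differed between lines (F of 5.75 for *Cox6a2*, with line means over a 1.96-fold range), and without pairing neither passed (adjusted p = 0.127 and 0.439, limma).

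In complex V, 4 of 17 members rose and 5 fell. Of the catalytic F1 part, *Atp5a1* and *Atp5c1* fell by 0.08 and 0.03, *Atp5d* rose by 0.07, and *Atp5b* and *Atp5e* did not pass. *Atp5a1*, the alpha subunit, was lower in all but 2 of 39 lines (adjusted p = 6.89e-10, limma). The stalk and membrane subunits *Atp5k*, *Atp5j2* and *Atp5h* rose by 0.11, 0.06 and 0.05. *Atp5g2*, one of 3 genes for an identical mature c subunit, changed by -0.21 from a Ctr median of 0.35 log2 CPM, but every window of its transcript has an exact copy elsewhere.

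The genes *Atp5sl* and *Atp5s* had clear falls in cortex although their products are not part of the ATP synthase core. *Atp5sl*, now named *Dmac2* and known as an assembly factor of the complex I membrane arm (chromosome 7 of mm9, 26404433 to 26410570, plus strand), had a lowest, median and highest level of 5.15, 5.36 and 5.55 log2 CPM in Ctr pools and 5.00, 5.20 and 5.37 in SD pools. It was lower in all but 2 of 39 lines, by 0.18 (SE 0.0165, adjusted p = 2.62e-13, limma). *Atp5s*, coupling factor B, now *Dmac2l* (chromosome 12 of mm9, 70825949 to 70845645, plus strand), went from a lowest, median and highest level of 3.64, 3.89 and 4.14 in Ctr pools to 3.50, 3.75 and 3.91 in SD pools. It was lower in all but 4 of 39 lines, by 0.15 (SE 0.0227, adjusted p = 1.66e-07, limma).

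Taking the 17 core and catalytic subunits of complexes I, II, III and V together, 11 fell, 1 rose (*Atp5d*) and 5 did not pass, and of the other 64 members 17 rose, 12 fell and 35 did not pass. The core subunits are also the longer transcripts, with a median of 1540 bases against 679.5 for the others. Of the 52 members under 1000 bases 15 rose and 7 fell, and of the 29 members of 1000 bases or more 3 rose and 16 fell. Across the 81 members the Spearman correlation of change with transcript length was -0.47, and across 13463 genes with a known length it was 0.05. Among all genes under 1000 bases 30.2% rose and 35.1% fell, and among longer ones 37.9% rose and 39.5% fell. Members are not independent of each other and share libraries, so these are descriptions, and role and length cannot be told apart here.

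One line stood apart in cortex. In BXD90, 79 of 81 members were lower in the SD pool than in the Ctr pool, with a median change of -0.42, whereas the other lines had member medians from -0.11 to 0.16. It was the Ctr library that differed, with a median member 0.41 above the mean of the 39 Ctr pools, while that of the SD library was at -0.03 from its mean. Both libraries were of ordinary depth, at 20156560 and 21977720 reads. The shift touched every complex, with medians of -0.43 for complex I, -0.35 for II, -0.43 for III, -0.49 for IV and -0.38 for V. Without BXD90, 48 of 81 members passed and 28 of them rose, where 77.7% of all genes passed, 37.2% higher and 40.5% lower. Leaving out this 1 line thus moved the member rises from 18 to 28.

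In liver few members passed. Only *Atp5sl*, *Ndufa7*, *Ndufa1*, *Ndufv3* and *Atp5s* did, 5 of 79, where 53.9% of all genes listed passed (26% higher and 27.9% lower). The median change was 0.03 for the members and -0.00152 for all genes. Complexes II, III and IV had no member past the threshold, and their medians were 0.02, 0.03 and 0.04. The count was 9 over the 33 BXD/RwwJ lines (50.8% of all genes) and 11 with all 43 pools (56.7%). Without pairing, 3 of 79 members passed (44.2% of all genes), and without the pair of BXD70 also 3 (56%), with *Ndufa7* and *Ndufa1* lost in both cases (adjusted p = 0.0657 and 0.0691 without BXD70, limma).

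*Atp5s* was the member with the largest change in liver and the only one over 0.4 in either tissue. Its lowest, median and highest levels were 3.46, 4.30 and 4.84 log2 CPM in Ctr pools and 3.18, 3.83 and 4.58 in SD pools. It was lower in all but 4 of 39 lines, by 0.40 on the log2 scale (SE 0.0432, adjusted p = 6.71e-11, limma), or 0.756 times its Ctr level, and changes ran from -1.12 in BXD95 to 0.06. *Ndufv3*, a small accessory subunit at the NADH end, went from a median of 6.53 to 6.39, a change of -0.11 (7 of 39 lines higher, adjusted p = 1.25e-04, limma). *Atp5sl*, which fell in cortex, rose by 0.08 in liver (23 of 39 lines higher, adjusted p = 0.0111, limma).

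The reads of the members in liver followed the depth of a library far less than those in cortex. The slope of log2 reads on log2 library total over 78 libraries, which is 1 for a gene with a fixed share of the library, had a median of 0.97 over the members in cortex and 0.22 in liver. Over all genes the medians were 0.97 and 1.32. In liver the members had from 0.00413 to 1.22 reads per transcript base in the median library, with a median of 0.750, while in cortex the median was 1.52 and the highest 12.3. The highest value of any gene was 3.02 reads per base in liver and 81.3 in cortex, so that liver had a ceiling on reads per base that cortex did not have. The cause was not tested, and the sources used here name no processing step for it. Where reads hardly rise with depth, a log2 CPM falls as the library total rises, so liver levels, including those per kilobase, and small liver changes of dense members may understate differences between transcripts.

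**Figure D3:**
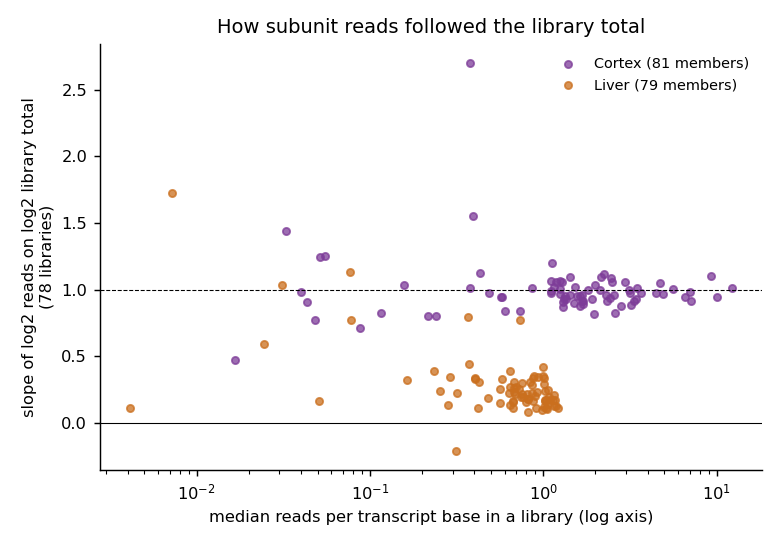
Slope of log2 reads on log2 library total over 78 libraries against the median number of reads per base of transcript (log axis), 1 point per member, for cortex (81 members) and liver (79 members). The dashed line marks the slope of 1 of a gene with a fixed share of the library. Cortex members have a median slope of 0.97 and liver members of 0.22.

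From line to line, the members of liver moved up and down together. The member median ran from -0.31 in the D2B6F1 hybrid to 0.49 in BXD70, with an SD of 0.149 over lines, against 0.0909 in cortex. It followed the log2 ratio of the library totals of the pair, with Pearson's r of -0.95 and Spearman's rho of -0.95 over 39 lines and r of -0.95 without the 2 lines farthest out (D2B6F1 and BXD70). In cortex r was 0.00606 and rho 0.21. In BXD70, 77 of 79 members were higher after SD, and the SD library held 4681101 reads against 6084586 in Ctr. In D2B6F1, 74 of 79 were lower, and the SD library held 6563242 reads against 5034166. The ratio of totals stands on both axes of this relation, since CPM divides by the total, and the lines share the 2 tables, so it is a description.

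**Figure D4:**
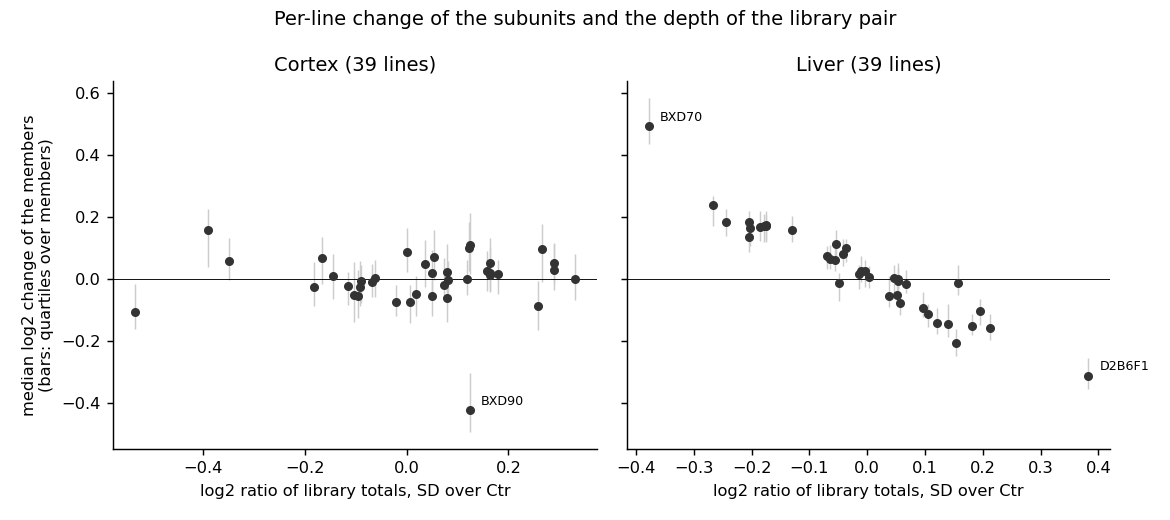
Median log2 change (SD minus Ctr) of the members in each of 39 lines, with bars to the quartiles over members, against the log2 ratio of the SD and Ctr library totals. In liver (right) the medians fall from 0.49 in BXD70 to -0.31 in D2B6F1 as the ratio rises. In cortex (left) BXD90 lies at -0.42 apart from the rest.

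With the log2 library total as a covariate, added after seeing these values, 16 of 79 liver members passed, 13 higher and 3 lower after SD, where 57.3% of all genes did. In that fit *Atp5h*, *Ndufa1*, *Ndufa7*, *Uqcrh* and *Atp5j* rose by 0.04, 0.05, 0.05, 0.03 and 0.04, *Ndufs1* joined *Ndufv3* and *Atp5s* among the falls, at -0.03, and *Atp5s* kept its -0.40. In cortex the covariate left 41 members called, 18 of them higher.

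To compare the tissues, the cortex change of each line was subtracted from its liver change. Of 79 members 18 differed, 12 with the liver change above the cortex change and 6 below, where 57.6% of 12695 genes differed. *Ndufb4*, *Atp5sl* and *Atp5g2* had the largest differences in the first direction, 0.26, 0.26 and 0.24. Those of *Ndufb4* and *Atp5g2* are uncertain, since 37.7% and 100% of their windows have an exact copy elsewhere. *Atp5sl* differed in 34 of 39 lines (SE 0.0308, adjusted p = 1.56e-09, limma). In the other direction stood *Atp5s*, *Ndufa8* and *Cox5a*, at -0.26, -0.09 and -0.08. For the core subunits *Ndufs1*, *Ndufs3*, *Uqcrc1*, *Uqcrc2*, *Atp5a1* and *Sdhb*, which fell in cortex, the liver change also lay above the cortex change, by 0.08, 0.11, 0.08, 0.11, 0.09 and 0.08. Liver changes of such dense members may be understated by the ceiling on reads per base. The tissue difference was not fitted with the library total. When the pools of a line were not paired, 10 members differed, where 47.8% of all genes did.

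Isoforms of complexes IV and V differed widely in level. The following are medians of Ctr pools in CPM per kilobase of transcript, set side by side, since the tables of the tissues were normalized separately. In cortex the ubiquitous *Cox4i1* was at 440.2 and its oxygen-sensitive isoform *Cox4i2* at 1.52. *Cox6a1* was at 287 against 7.33 for the muscle form *Cox6a2*. *Cox6b1* was at 246 against 2.04 for *Cox6b2*, and the pool ranges of the isoforms did not meet in any of these pairs. *Cox7a2* was at 106, *Cox7a2l* at 56.2 and the muscle form *Cox7a1* at 2.38.

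In liver the same isoforms led. *Cox4i1* was at 175 and *Cox4i2* at 0.886 CPM per kilobase, *Cox6b1* at 153 and *Cox6b2* at 1.25, and *Cox7a2*, *Cox7a2l* and *Cox7a1* at 99.4, 44.7 and 12.3. Among the c subunit genes *Atp5g3* led in both tissues, at 220.4 in cortex and 171 in liver. *Atp5g1* and *Atp5g2* were at 24.7 and 1.97 in cortex, but at 123 and 38.1 in liver. Both have many windows with exact copies, which makes their levels uncertain, and the ceiling on reads per base applies to the abundant isoforms of liver. The changes of *Cox4i2* and *Cox6b2* in liver ran from -2.89 to 3.27 and from -1.63 to 2.60 over the lines, and neither passed there (adjusted p = 0.547 and 0.319, limma).

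Lines differed in the level of many members. Over the 33 BXD/RwwJ lines with condition in the model, 34 of 81 members in cortex and 71 of 79 in liver passed an adjusted p under 0.05 for a difference between lines (F test in limma), where 50.4% and 59% of all genes passed. With the library total as a covariate 7 of 79 liver members passed, where 44.5% of all genes did, while 35 of 81 passed in cortex, where 48.9% did. With all 43 pools in the fit 65 of 81 members passed in cortex, where 63.2% of all genes did, so the cortex count lay below or above the share of all genes by the pools used. BXD90, whose Ctr library stood apart in cortex, had the highest line mean for many of the passing cortex members. For *Ndufv2*, *Uqcrb* and *Uqcrc1* the widest gap set this line alone above the other 32. Another line was highest for *Cox7a2l*, *Cox7c* and *Cox5b*. The line test was not run without BXD90, so its part in the cortex count was not tested.

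*Cox7a2l* (chromosome 17 of mm9, 83901259 to 83913673, minus strand) had the largest F in liver, 58.9, and one of 59.0 in cortex, where *Ndufa12* alone was higher. Its levels fell into separate ranges. In cortex 15 lines had a mean of Ctr and SD up to 5.37 log2 CPM and 18 lines a mean of 5.97 or more, and in liver 15 lines lay up to 5.24 and 18 lines from 5.71. The same 15 lines were low in both tissues. The parents lay on opposite sides, with Ctr values of 6.11 and 6.01 in the B6 pools and 5.22 and 5.17 in the D2 pools of cortex, and 5.95 and 6.00 against 4.89 and 4.80 in liver. The Ctr pools of the F1 hybrids B6D2F1 and D2B6F1 were at 5.79 and 5.64 in cortex and at 5.67 and 5.95 in liver. In liver the D2B6F1 value lay within the range of the B6 pools. D2 was below B6 by 0.81 in cortex and 0.95 in liver (SE 0.0543 and 0.0903, limma), or 1.76-fold and 1.94-fold.

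*Ndufa12*, an accessory subunit of the complex I matrix arm (chromosome 10 of mm9, 93661700 to 93684188, plus strand), split the lines in cortex alone. The lines BXD45, BXD61, BXD89 and BXD95 had a lowest, median and highest Ctr level of 1.55, 1.64 and 1.83 log2 CPM, and the other 29 lines of 3.98, 4.19 and 4.77. The D2 pools were at 1.60 and 2.05, the B6 pools at 4.43 and 4.26, and the F1 hybrids between them at 3.59 and 3.31. In liver the same 4 lines, at 5.06, 5.33 and 5.47, lay inside the range of the other lines, 5.03 to 5.64. The D2 minus B6 difference in cortex was -2.62 (SE 0.104), a 6.14-fold lower level. Of its windows 17.7% have an exact copy elsewhere and 33.5% a copy with at most 2 mismatches. Its level in cortex and the size of its differences between lines and strains are therefore uncertain. The part of read mapping in the split was not tested.

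**Figure D5:**
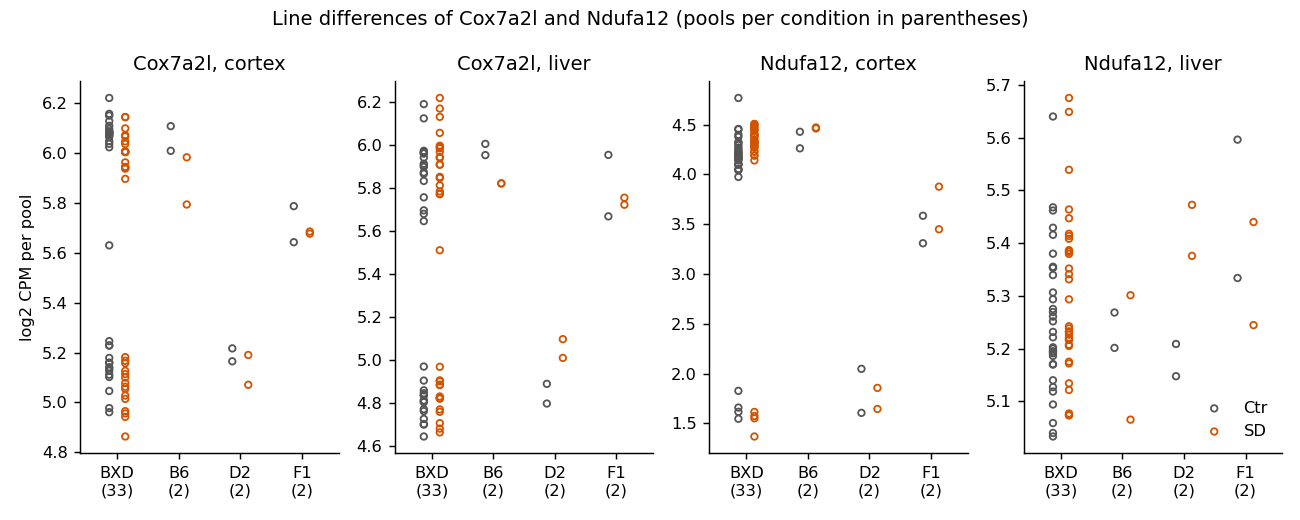
Levels (log2 CPM, with a scale for each panel) of *Cox7a2l* and *Ndufa12* in the pools of 33 BXD/RwwJ lines, 2 B6, 2 D2 and 2 F1 pools, with Ctr in grey and SD in orange. *Cox7a2l* separates 15 low lines from 18 high ones in both tissues, and *Ndufa12* separates 4 lines in cortex but not in liver.

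*Cox7c* and *Cox5b* followed in cortex, with F of 11.7 and 9.41. *Cox7c* line means ranged 3.98-fold, with 8 lines at or below 0.52 log2 CPM and 25 lines at or above 1.22. *Cox5b* line means ranged 1.87-fold, with 12 lines up to 2.90 and 21 lines from 3.22. In both, D2 was below B6, by 1.26 and 0.76. Both have windows with exact copies, 67.4% and 37.2%, and in liver they passed neither the parental test nor the line test with the library total. All 4 members with the largest F in cortex, *Ndufa12*, *Cox7a2l*, *Cox7c* and *Cox5b*, are thus among the 14 members of uncertain counts.

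*Sdhc* (chromosome 1 of mm9, 173057296 to 173080734, minus strand), named after its values were seen, differed between lines in cortex with F of 8.19. The D2 minus B6 difference was -0.20 (adjusted p = 0.0157, limma), which did not pass with the library total (adjusted p = 0.141). In liver *Atp5s* was next to *Cox7a2l*, with F of 6.13 and line means over a 2.26-fold range. *Sdha* and *Atp5b* followed at F of 5.31 and 4.73, and *Atp5b* did not pass with the library total (adjusted p = 0.284, limma).

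Between the parental strains, 18 of 81 members differed in cortex, 9 higher and 9 lower in D2, where 25.5% of all genes did. Members whose B6 and D2 pools did not overlap numbered 15, against 17.3% of all genes. In liver 3 of 79 members differed (*Cox7a2l* and *Atp5s* lower in D2, *Sdhd* higher), where 17.9% of all genes did. With the library total as a covariate *Cox7a2l* alone passed in liver, where 10.5% of all genes did, and 10 members passed in cortex, where 16.1% did. These counts rest on 2 pools a strain and condition. Leaving out 1 pool changed the counts, but it left 1 pool a condition in a strain. Those counts are listed only with the processing alternatives at the end, and no conclusion is drawn from them.

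Factors known to bind promoters of these genes were among the transcripts that rose in cortex. Of 14 regulators of mitochondrial biogenesis 10 rose and 1 fell, where 36.6% of all genes rose and 39.6% fell, and their median change was 0.10 against -0.01 for all genes. *Gabpa* and *Gabpb1*, the subunits of GABP (also called NRF2), rose by 0.41 and 0.33, and *Nrf1*, nuclear respiratory factor 1, rose by 0.33, each in 39 of 39 lines. *Tfb1m*, a methyltransferase of mitochondrial ribosomal RNA, fell by 0.12. In liver, where 26% of all genes rose and 27.9% fell, 7 rose and 2 fell, with *Peo1* (*Twnk*), the mitochondrial DNA helicase, up by 0.36, *Pprc1* up by 0.31, and *Ppargc1a*, the coactivator that drives mitochondrial biogenesis, and *Tfam* down by 0.17 and 0.04.

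RefSeq promoters (GRCm38.p6, the 250 bases before the start) were at hand for 67 of the 81 members. A match to the NRF1 motif (GCGCA, any base, then GCGC) on either strand was found in 12 of them, 17.9%, against 4.23% of 27025 genes. A match to the GABP motif CCGGAAG on either strand was found in 12, 17.9%, against 7.83% of genes. The YY1 motif AAGATGGCG was found in 2, 2.99%, against 0.710% of genes, and the SP1 motif GGGCGG in 25, 37.3%, against 35.4% of genes. Of the members with a promoter, NRF1 matches were in 4 of 17 that rose in cortex, 4 of 15 that fell and 4 of 35 that did not pass. GABP matches were in 3, 1 and 8 of these. A match is a description of the letters and not of binding. 5 promoters are shown, 3 of members that rose in cortex (*Ndufa8*, *Atp5k*, *Uqcrh*) and 2 of members that fell (*Sdha*, *Ndufs3*), read 5′ to 3′ along the gene up to the base before its start, with matches to the NRF1, GABP or YY1 motif in capitals. All 5 are on the minus strand, at chr2:36049339-36049588, chr5:108434400-108434649, chr4:116075071-116075320, chr13:74350241-74350490 and chr2:90904722-90904971 in the order given here.
Ndufa8: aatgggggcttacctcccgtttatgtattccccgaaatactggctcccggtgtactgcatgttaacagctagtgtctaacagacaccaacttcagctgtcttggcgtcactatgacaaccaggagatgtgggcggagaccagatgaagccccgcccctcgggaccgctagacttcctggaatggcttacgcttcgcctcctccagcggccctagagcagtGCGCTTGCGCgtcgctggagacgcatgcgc
Atp5k: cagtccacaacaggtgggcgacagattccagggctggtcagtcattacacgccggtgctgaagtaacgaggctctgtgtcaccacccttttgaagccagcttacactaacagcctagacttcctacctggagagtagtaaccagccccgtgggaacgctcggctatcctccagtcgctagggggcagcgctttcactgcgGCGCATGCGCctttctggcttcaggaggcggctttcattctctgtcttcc
Uqcrh: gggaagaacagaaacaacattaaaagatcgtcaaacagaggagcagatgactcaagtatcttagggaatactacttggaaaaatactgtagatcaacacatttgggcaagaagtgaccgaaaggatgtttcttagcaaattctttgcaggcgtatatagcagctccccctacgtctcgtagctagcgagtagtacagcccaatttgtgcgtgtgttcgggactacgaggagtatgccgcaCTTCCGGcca
Sdha: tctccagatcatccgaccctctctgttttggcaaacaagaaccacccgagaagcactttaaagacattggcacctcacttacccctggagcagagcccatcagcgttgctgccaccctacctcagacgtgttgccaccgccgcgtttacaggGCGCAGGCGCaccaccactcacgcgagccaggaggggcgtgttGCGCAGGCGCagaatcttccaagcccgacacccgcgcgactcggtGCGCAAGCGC
Ndufs3: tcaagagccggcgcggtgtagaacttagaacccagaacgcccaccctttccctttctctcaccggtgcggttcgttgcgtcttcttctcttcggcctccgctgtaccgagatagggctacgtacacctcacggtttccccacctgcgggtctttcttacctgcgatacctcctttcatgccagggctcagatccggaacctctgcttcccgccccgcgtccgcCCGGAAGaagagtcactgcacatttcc
The capitals mark NRF1 matches in *Ndufa8*, *Atp5k* and *Sdha*, which has 3, and GABP matches in *Uqcrh* and *Ndufs3*.

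Of the other genes of the pathway, 18 of 44 assembly factors rose in cortex and 15 fell, where 76.3% of all genes passed in either direction, with *Ndufaf4* up by 0.32 in 39 of 39 lines and *Coa4* up by 0.29, and with *Sdhaf1* down by 0.55 in 39 of 39 lines and *Nubpl* down by 0.36. In liver, where 53.9% of all genes passed, 8 rose and 11 fell, led by *Coa4* at 0.23, *Sdhaf2* at 0.13, *Cox15* at -0.22 and *Atpaf1* at -0.21. Of 15 electron carriers and carriers for ATP export, 4 rose and 7 fell in cortex, with the uncoupling protein *Ucp2* up by 0.38, cytochrome c (*Cycs*) up by 0.17, *Coq7* down by 0.07 and *Vdac3* down by 0.07. In liver none rose and 3 fell, among them *Slc25a4*, the muscle and heart ADP/ATP carrier, by 0.26 and *Coq7* by 0.12. Of 13 enzymes of the tricarboxylic acid cycle, 2 rose and 6 fell in cortex, with *Suclg1* and *Dlst* up by 0.10 and 0.08 and *Suclg2* and *Mdh2* down by 0.14 and 0.06. In liver 3 rose and 3 fell, with *Ogdh* up by 0.08 and *Idh3g* and *Cs* down by 0.11 and 0.10.

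Markers of other cells were set beside the isoforms known from them. Over all genes 36.6% rose and 39.6% fell in cortex, and 26% rose and 27.9% fell in liver. Counts on these short lists are to be read beside those shares. Of 14 striated muscle markers 8 were listed in cortex, and 5 of these fell and none rose, with *Myh1* and *Myh2*, myosin heavy chains of fast muscle, at -0.85 and -0.78. Their summed level ran from 15.0 to 29.3 CPM in Ctr and from 14.7 to 23.5 in SD pools, and the defining markers *Ckm* and *Mb* were not listed. Of 6 markers of parvalbumin neurons, cells known to hold *Cox6a2*, 4 rose and none fell, with *Pvalb* up by 0.06, while *Cox6a2* fell. Of brown adipocyte markers 4 of 6 were listed in cortex, 2 rose and 1 fell, and *Ucp1* was not listed. Their summed level ran from 87.2 to 158 CPM in Ctr and from 164 to 376 in SD pools, ranges that do not overlap, and most of it was *Dio2*, a deiodinase that astrocytes also make, which rose by 1.38 in 39 of 39 lines. Of 5 markers each in cortex, neurons had 1 rise and 3 falls, astrocytes 4 and 0, oligodendrocytes 1 and 2, microglia 1 and 2, and endothelium 2 and 2. In liver hepatocytes had 1 rise and no fall, Kupffer cells, astrocytes, microglia and endothelium 1 and 2 each, B cells no rise and 4 falls among 4 listed, oligodendrocytes no rise and 3 falls among 3 listed (median -0.30), and neurons 1 fall among 2 listed, while of erythroid and choroid plexus markers none passed in either tissue. The part of any of these in the members' changes was not tested.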

How the data were processed

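RNA-seq of cortex and liver was analysed as 156 libraries, 39 pools per tissue and condition, and 16 libraries of 4 BXD/TyJ lines entered 1 alternative alone (all 43 pools). The values are log2 CPM deposited by the authors, who aligned reads to mm9 with STAR, counted them by strand on RefSeq genes with htseq-count, left out genes with a low mean count and scaled by edgeR's TMM method. When the scaling was undone, 100% of values came out whole (tolerance 0.02 reads), and these reads gave the library totals and read densities. No column was without a sample.

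SD and Ctr were compared with limma 3.58.1 in R 4.3.3 (line and condition as terms, eBayes with a trend, Benjamini-Hochberg over all genes listed), tissues by an intercept fit on liver minus cortex changes, lines by an F test with condition, and parents with strain and condition. Pools of a line resembled each other (correlation of deviations at least 0.299 in cortex and 0.169 in liver), which is why the line was a block. The fits were tested on simulated data. Transcript length is that of the transcript with the longest coding sequence, and copies were sought with minimap2 2.31 in windows of 100 bases. Genes were named by rule: in each tissue and complex the 2 largest rises and 2 largest falls past the threshold, any change of 0.5 or more, the 3 largest tissue differences each way, the 4 largest line F and 3 largest parental differences, isoform families, and the 2 largest changes each way of a list, and others are given for completeness of a group. The rule for members uses gene symbols alone, but the choice of this gene group, the lists and the tests were made with earlier results of these data known. The lists are assembly factors, electron carriers and ATP export, tricarboxylic acid cycle, mitochondrial biogenesis regulators, mitochondrial DNA genes and cell type markers. Alternatives were fits without pairing, without a trend, with median-centred libraries, the 33 BXD/RwwJ lines alone, genes whose average log2 CPM was 0 or more, every one of the 43 pools, averaged parents, without BXD79, BXD85 and BXD101, voom on recovered reads, pools left out, variance from all 39 pools and, added after seeing the data, the library total and the lines BXD90 and BXD70. Since RNA was pooled, p-values measure the spread between pools of lines and not between mice. Some genes are counted in their groups but not reported by name here.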

Additional observations from a re-analysis of the deposited data

Results flagged for a closer look

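The response of 18 members differed between liver and cortex by a test of the difference itself (limma on the liver minus cortex change of 39 lines), and 6 of them are given here. The liver change exceeded the cortex change by 0.26 for *Ndufb4* (28 of 39 lines), 0.26 for *Atp5sl* (34 of 39) and 0.24 for *Atp5g2* (29 of 39). It lay below the cortex change by a difference of -0.26 for *Atp5s*, -0.0912 for *Ndufa8* and -0.0850 for *Cox5a*, with the liver change the higher in 11 of 39 lines for each. The difference of *Cox5a* was not past the threshold with median-centred libraries (adjusted p = 0.115), and that of *Ndufa8* not over the 33 BXD/RwwJ lines (adjusted p = 0.0525). *Ndufb4* and *Atp5g2* have windows with exact copies elsewhere, 37.7% and 100%, which makes their differences uncertain.

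The 4 SD pools of BXD/TyJ lines in liver entered the fits with all 43 pools alone. Among them 1 pool lay apart in the median level of the members, with a gap to its neighbour of 0.831 of the whole range. Chance alone marks about 1 in 20 groups in this way.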

How the results depend on the processing

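Of the values of named genes under the alternatives, 640 kept their direction and side of the threshold, 43 lost significance, 9 gained it and 11 changed sign. The sign changes were of members that did not pass: in cortex *Cox6a1* at -0.00131 with median-centred libraries and -0.00357 with all 43 pools, *Cox8a* at 0.00338 with averaged parents, 4.49e-05 with voom and 0.0101 without BXD90, and *Cox4i1* at 0.00196 without BXD90; in liver *Cox7a1* at -0.0420 with all 43 pools and -0.0222 without BXD70, and *Atp5g3* with the library total at small negative values, paired (-0.00908) or not (-0.00938), and -0.00292 without BXD70.

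The number of members past the threshold in liver, 5 when paired, was 3 without the replicate block (44.2% of all genes), 3 with median-centred libraries (53%), 3 without BXD70 (56%), 9 over the 33 BXD/RwwJ lines (50.8%), 11 with all 43 pools (56.7%), and 16 (57.3%) or 13 (48.8%) with the library total with or without the block. In cortex it was 41 with the block and 30 without it (68.4% of all genes). The tissue difference counted 10 members without the block (47.8%). Line differences counted 65 members in cortex with all 43 pools (63.2%) and 7 in liver with the library total (44.5%). Between parents, the cortex count ran from 9 to 19 when 1 pool was left out and was 10 with the library total (16.1%), and the liver count was 1 with each pool left out, 1 without a trend, 1 with the library total (10.5%) and 10 with the variance of all 39 pools (19.3%). The causes were not tested. The parental counts with 1 pool left out rest on 1 pool a condition in a strain, so no conclusion is drawn from them. Lower depth in liver limits what can be seen of its low isoforms.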
